A study of Mus musculus with 9 samples.

Results

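Nodal signalling was followed across 9 arrays of mouse cells through 9 genes, namely the ligands Nodal and Gdf3, the co-receptor Tdgf1, the receptor Acvr2b, the transducers Smad2 and Foxh1, and the secreted antagonists Lefty1, Lefty2 and Cer1. They were listed by name and taken through the platform annotation, and 9 of 9 were measured, each by 1 probe set, among 22180 genes in all. The cells were mouse embryonic stem cells with a transgene in which the alpha-fetoprotein promoter drives green fluorescent protein (Afp::GFP). They were grown as embryoid bodies, aggregates that form derivatives of the germ layers, in medium with serum, transferrin and ascorbic acid, and were allowed to attach to gelatin. Cells positive for Afp were isolated by flow cytometry at days 4, 7 and 21, with 3 arrays per day, and all groups carry the same transgene and had the same sort. The strain, the clone and any separate cultures behind the arrays are not described, so the errors and p-values cover variation among these arrays and possibly not among cultures. The reporter follows the Afp promoter, so each day's sample holds whichever cells that promoter marked on that day.

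Nodal is a secreted ligand of the TGF-beta superfamily that patterns the early embryo. It binds type I and type II activin receptors and needs a co-receptor of the EGF-CFC family, Cripto (Tdgf1) or Cryptic (Cfc1). The receptors phosphorylate SMAD2 and SMAD3, which enter the nucleus with SMAD4 and act there with the forkhead factor FOXH1. Nodal and both Lefty genes are themselves targets of the pathway, so the ligand and its feedback inhibitors are often switched on together. In the mouse embryo the epiblast and primitive streak use the pathway to specify mesoderm and definitive endoderm, while the anterior visceral endoderm secretes the antagonists CER1 and LEFTY1.

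Promoter sequences are shown for Tdgf1, Cer1 and Nodal, a co-receptor, an antagonist and a ligand whose transcripts were lower at both day 7 and day 21 than at day 4. RefSeq windows of 250 bases before to 50 bases after the annotated start (GRCm38.p6) were found by symbol for 4 of the 9 members, the fourth being Acvr2b. Each is written 5′ to 3′ on the strand of the gene, and capitals mark CAGAC, the short SMAD-binding motif.
Tdgf1, chr9:110946109-110946408, minus strand: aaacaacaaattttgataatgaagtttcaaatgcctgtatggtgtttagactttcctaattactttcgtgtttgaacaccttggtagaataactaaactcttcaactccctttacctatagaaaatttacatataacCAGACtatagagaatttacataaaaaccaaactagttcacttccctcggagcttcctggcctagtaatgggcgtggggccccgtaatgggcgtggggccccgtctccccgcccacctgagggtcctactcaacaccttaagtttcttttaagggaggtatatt
Cer1, chr4:82885102-82885401, minus strand: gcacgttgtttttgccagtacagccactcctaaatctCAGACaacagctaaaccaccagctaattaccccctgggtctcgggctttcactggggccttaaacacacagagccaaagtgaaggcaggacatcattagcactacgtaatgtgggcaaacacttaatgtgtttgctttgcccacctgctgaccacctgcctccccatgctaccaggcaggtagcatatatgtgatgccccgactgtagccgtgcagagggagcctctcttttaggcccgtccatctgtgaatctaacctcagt
Nodal, chr10:61417722-61418021, plus strand: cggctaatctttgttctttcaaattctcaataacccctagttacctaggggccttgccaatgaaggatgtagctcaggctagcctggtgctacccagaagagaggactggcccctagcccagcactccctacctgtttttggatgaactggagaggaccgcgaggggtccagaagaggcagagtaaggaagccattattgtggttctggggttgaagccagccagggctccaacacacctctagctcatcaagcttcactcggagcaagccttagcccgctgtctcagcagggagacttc
The motif CAGAC was searched on both strands. It was present once in the Tdgf1 window, at positions -113 to -109 from the start, and once in the Cer1 window, at -213 to -209. The Acvr2b window held it once and the Nodal window did not hold it, while 49.6% of 32851 promoter windows of this length had it. The FOXH1 motif AATNCACA, the T-box motif TCACACC and the motif TATAAA, also read on both strands, matched none of the 4 windows and were in 3.60%, 3.98% and 13.6% of all windows. A match is a run of letters, and a missing match concerns only these windows.

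Values are log2 signals from the deposited RMA table, given as mean ± SD of 3 arrays. Differences between days are log2 changes ± SE from a limma fit to all 9 arrays, with p-values adjusted across all 22180 genes after Benjamini and Hochberg, and a gene is said to rise or fall where the adjusted p is under 0.05. As a guide to background, the 95th percentile of 1105 olfactory receptor genes averaged 6.06 at days 4 and 7 and 6.03 at day 21. Levels of different genes come from different probes and are not compared with each other. In sorted bulk samples, fewer cells of a type and less RNA per cell cannot be told apart.

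Arrays of 1 day correlated with each other at 0.984 to 0.991 across genes, above any pair of arrays from different days, at most 0.971. The labelled sort was checked against Afp, which read 5.93, 5.62 and 5.62 at day 4, 10.68, 10.59 and 10.54 at day 7, and 13.12, 13.14 and 12.95 at day 21. Afp transcript was therefore below background on the day 4 arrays, although those cells are labelled as Afp-sorted. Of 9 visceral endoderm markers, 5 were above background at day 4 and 9 at days 7 and 21. All 9 rose between days 4 and 7, where 6.98% of all genes rose. From day 7 to day 21, 8 fell and 1 rose, where 10.7% of all genes fell and 12.4% rose. Over the whole course 7 rose and 0 fell, where 15.0% of all genes rose and 14.1% fell. Of 4 measured primitive streak markers, some of them also Nodal targets, 3 were above background at days 4 and 7 and 0 at day 21. Their mean signal ran from 7.98 to 8.12 at day 4, from 6.32 to 6.46 at day 7 and from 5.36 to 5.76 at day 21. Between days 4 and 7, 3 of the 4 fell and 0 rose, where 6.47% of all genes fell and 6.98% rose. Mean signal over 8 mesenchyme markers ran from 6.84 to 6.87 at day 4, from 6.18 to 6.36 at day 7 and from 9.19 to 10.20 at day 21. Over 8 markers of pluripotent and epiblast cells, mean signal ran from 7.18 to 7.55 at day 4, from 7.21 to 7.33 at day 7 and from 6.05 to 6.40 at day 21. None of 4 measured blood markers was above background on any day. Of 5 cardiac, 5 endothelial and 5 neural markers, 4, 3 and 4 were above it at days 4 and 7, and 5, 3 and 3 at day 21. The part of these marker shifts in the results for Nodal pathway genes was not tested.

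Between days 4 and 7, transcripts of the co-receptor, the ligand Nodal, the transducer Foxh1 and 2 antagonists fell in the sorted cells. Tdgf1 fell 14.7-fold and Cer1 3.65-fold, and Nodal, Foxh1 and Lefty2 fell by 1.39- to 1.53-fold. In all, 5 of 9 members fell and 0 rose, where 13.4% of all genes passed and 6.47% fell, and the median log2 change was -0.47 for the members and -0.01 for all genes. The 3 arrays of day 7 lay below the 3 of day 4 for 7 members and above them for none. The groups were separate for 29.9% of all genes, and separate with day 7 lower for 15.9%. Between days 7 and 21, 5 of 9 fell and 0 rose, where 23.0% of all genes passed and 10.7% fell, with a median of -0.65 for the members and -0.03 for all genes. The day 21 arrays lay below the day 7 arrays for 5 members, where 35.5% of all genes were separate and 18.4% separate and lower. Over the whole course 8 of 9 fell, where 29.1% of all genes passed and 14.1% fell, and Smad2 did not pass. The day 21 arrays lay below the day 4 arrays for 9 of 9 members, where 40.4% of all genes were separate and 21.0% separate and lower. Of all genes called between days 7 and 21, 2740 were higher and 2366 lower, a split that became 2266 and 3760 with each array centred on its median. For days 4 and 21 the split of 3328 higher and 3120 lower became 2686 and 4619. The counts of members, 5, 5 and 8, all lower, were the same under that centring.

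**Figure D1:**
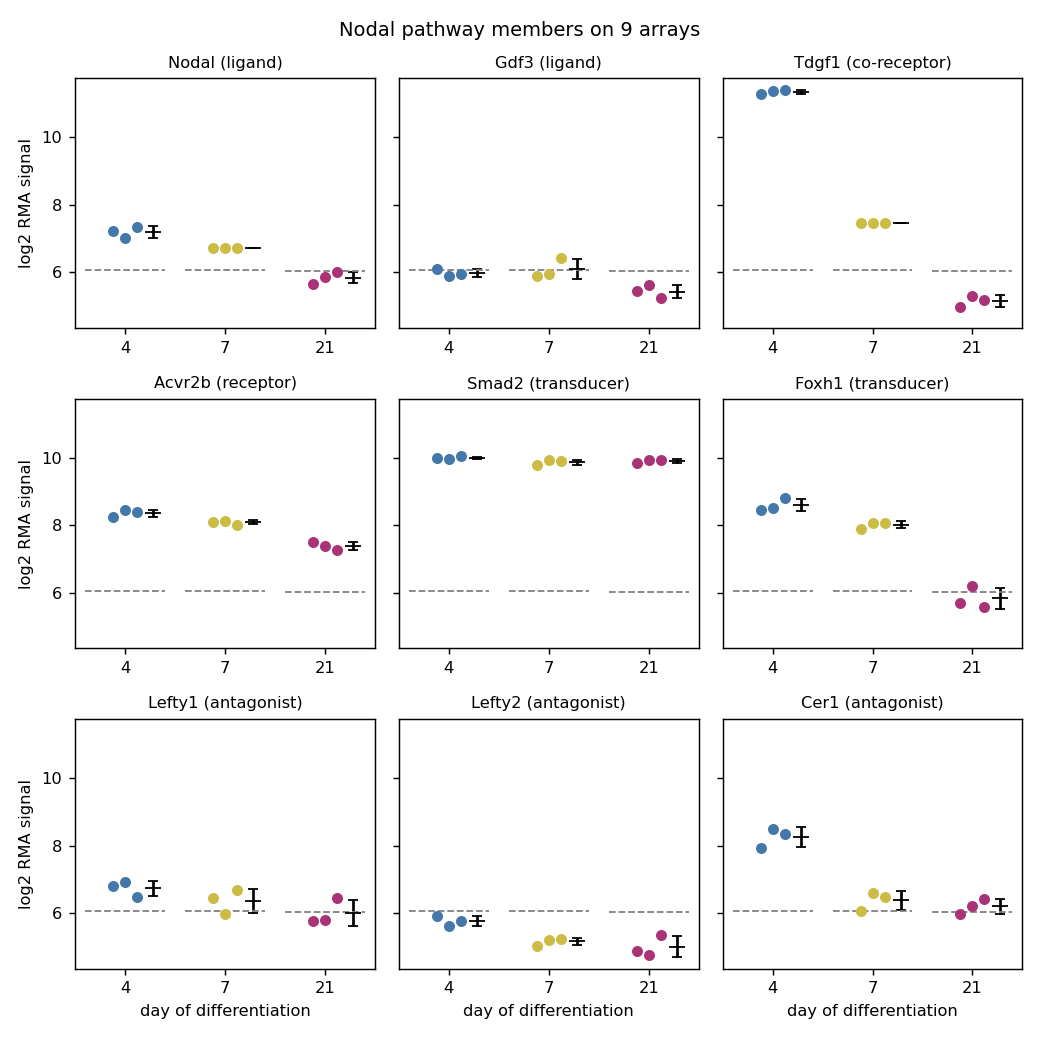
Log2 RMA signal of the 9 members (vertical axis, shared scale) by day of differentiation (horizontal axis). Points are the 3 arrays of a day, black bars their mean ± SD, and dashed lines the 95th percentile of olfactory receptor genes. Tdgf1 dropped from 11.34 to 7.46 and 5.15, while Smad2 stayed between 9.77 and 10.04 on the 9 arrays.

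**Figure D2:**
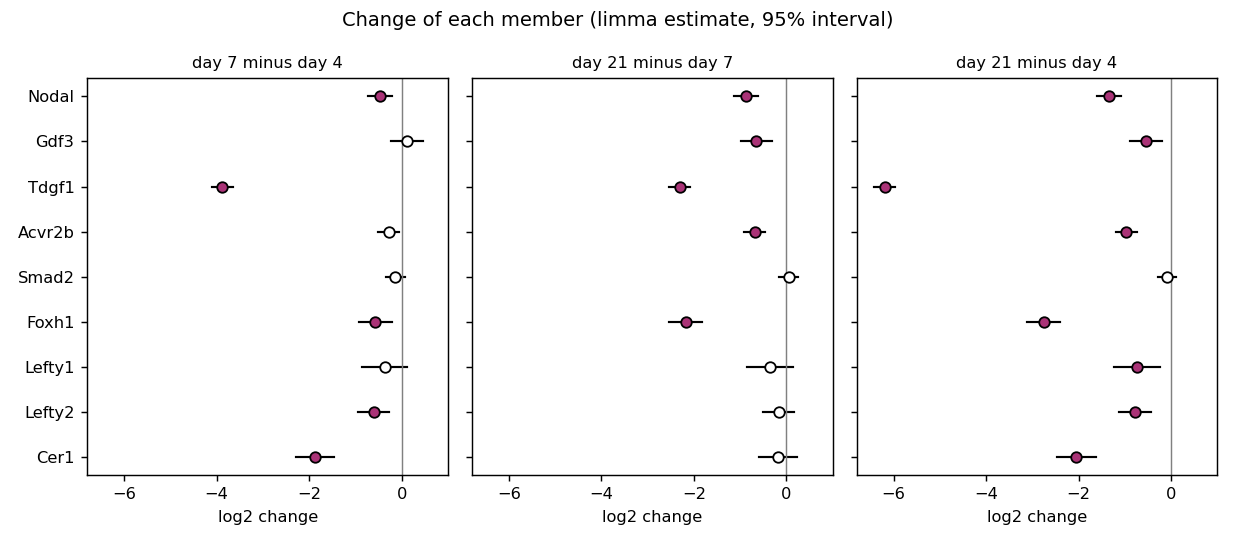
Log2 change of each member (horizontal axis) in the 3 comparisons of days, with the 95% interval of the limma fit as a line. Filled points passed the adjusted test. The filled points, 5, 5 and 8 in the 3 panels, lie to the left of 0.

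Nodal (probe set 17233702), the ligand, was modest in signal and declined at each step. Its arrays read 7.21, 7.01 and 7.34 at day 4, 6.72, 6.71 and 6.73 at day 7, and 5.66, 5.87 and 6.0 at day 21. The 3 groups did not overlap, and by day 21 the mean of 5.84 ± 0.17 was below background. Nodal fell by 0.47 (SE 0.12) on the log2 scale to day 7 (limma adjusted p = 0.0239) and by 0.87 (SE 0.12) from day 7 to day 21 (limma adjusted p = 0.000344). Its net change was -1.34 ± 0.12, a 2.54-fold fall (limma adjusted p = 1.36e-05), of which 35.0% on the log2 scale was reached by day 7. Because the day 21 level is at background, that fold is one of array signal.

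Gdf3 (17470592), a related ligand that also acts through Cripto, stayed close to background throughout. Its arrays read 6.10, 5.88 and 5.94 at day 4, 5.88, 5.95 and 6.42 at day 7, and 5.44, 5.61 and 5.25 at day 21. Days 4 and 7 overlapped, and the day 21 arrays were below both. The change to day 7, 0.11 ± 0.15 with a 95% interval from -0.23 to 0.45, did not pass. Gdf3 fell by 0.65 (SE 0.15) from day 7 to day 21 (limma adjusted p = 0.0111) and by 0.54 (SE 0.15) over the whole course (limma adjusted p = 0.0229). The net call ended without day 4 replicate 1 or 3 or day 21 replicate 1 or 3, with adjusted p from 0.00788 to 0.0824 over the 9 fits that left out 1 array.

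Tdgf1 (17531685), which encodes Cripto, the membrane-anchored co-receptor, had the largest change of the 9 members in each comparison. The day 4 arrays read 11.27, 11.35 and 11.40, the day 7 arrays 7.47, 7.46 and 7.45, and the day 21 arrays 4.96, 5.29 and 5.18. The groups were far apart, with an SD of at most 0.17, and the transcript passed from 5.28 log2 units over background at day 4 to 1.4 at day 7 and below it at day 21. The log2 change was -3.88 ± 0.10 to day 7 (limma adjusted p = 1.06e-08) and -2.31 ± 0.10 from day 7 to day 21 (limma adjusted p = 1.61e-07). Over the whole course it was -6.19 ± 0.10, a 73.3-fold fall in array signal against a floor (limma adjusted p = 2.7e-10). Ranked by this change from the lowest, Tdgf1 stood at place 1 of 22180 genes between days 4 and 21, at place 2 between days 4 and 7 and at place 55 between days 7 and 21. By day 7, 62.7% of its net log2 fall had occurred.

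Acvr2b (17523081), a type II receptor shared by Nodal and activins, kept a clear signal on every day and decreased late. Its arrays read 8.24, 8.44 and 8.38 at day 4, 8.09, 8.12 and 8.01 at day 7, and 7.51, 7.39 and 7.25 at day 21. The 3 groups did not overlap, yet the first step of -0.28 ± 0.10 did not pass the adjusted test (limma adjusted p = 0.120). Acvr2b fell by 0.69 (SE 0.10) from day 7 to day 21 (limma adjusted p = 0.000666), and its net fall was 1.96-fold (limma adjusted p = 5.1e-05).

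Smad2 (17351886), the receptor-activated SMAD that carries the signal to the nucleus, was the member with the least change over the whole course. Its arrays lay between 9.97 and 10.04 at day 4 and read 9.77, 9.92 and 9.90 at day 7 and 9.84, 9.94 and 9.94 at day 21. Days 7 and 21 overlapped, and both lay slightly below day 4. The change of -0.14 ± 0.09 to day 7 did not pass, nor did the net change of -0.09 ± 0.09, whose 95% interval ran from -0.29 to 0.11. The change from day 7 to day 21 was 0.05 ± 0.09, and it was -0.05 with each array centred on its median.

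Foxh1 (17318665), the forkhead partner through which SMAD2 complexes reach many Nodal targets, was lost mainly after day 7. Its arrays read 8.45, 8.51 and 8.80 at day 4, 7.90, 8.07 and 8.07 at day 7, and 5.71, 6.19 and 5.59 at day 21. The first 2 groups were close without overlap, and at day 21 the mean, 5.83 ± 0.32, was below background. The log2 change was -0.58 ± 0.16 to day 7 (limma adjusted p = 0.0383) and -2.18 ± 0.16 from day 7 to day 21 (limma adjusted p = 4.8e-06). Over the whole course Foxh1 fell 6.77-fold in array signal, to a level at background (limma adjusted p = 7.24e-07), and 20.9% of that log2 fall in signal had occurred by day 7. By net change in signal it stood at place 30 from the lowest of 22180 genes.

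Lefty1 and Lefty2 encode the feedback inhibitors that bind Nodal and its co-receptor. They are close relatives of each other and near neighbours on mouse chromosome 1 in RefSeq, and signal shared between their probe sets was not tested. Lefty1 (17220214) read 6.79, 6.92 and 6.48 at day 4, 6.44, 5.97 and 6.68 at day 7, and 5.77, 5.79 and 6.44 at day 21. Days 4 and 7 overlapped, as did days 7 and 21, while day 21 lay below day 4. The steps of -0.37 ± 0.22 and -0.36 ± 0.22 did not pass, and the net change was -0.73 ± 0.22 (limma adjusted p = 0.0299). The highest Lefty1 value of day 7 and that of day 21 were both on replicate 3, the 2 arrays with the highest olfactory reference, 6.18 on each against 5.91 to 6.11 on the other 7 arrays. The part of that reference in the Lefty1 values was not tested. Without day 4 replicate 1 or 2 or day 21 replicate 1 or 2 the net call ended, with adjusted p from 0.00732 to 0.106 over the 9 fits that left out 1 array.

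Lefty2 (17220197) was below background on each day, the only member of which this was so. It read 5.93, 5.63 and 5.77 at day 4, 5.04, 5.22 and 5.23 at day 7, and 4.88, 4.76 and 5.35 at day 21. The day 4 arrays were above the 6 later ones, and days 7 and 21 overlapped. Lefty2 changed by -0.61 ± 0.15 to day 7 (limma adjusted p = 0.0238) and by -0.78 ± 0.15 over the whole course (limma adjusted p = 0.0029), which are changes of array signal within the range of the background genes.

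Cer1 (17426803), Cerberus-like, a secreted antagonist that binds Nodal and also BMPs, was lost early. Its arrays read 7.92, 8.49 and 8.35 at day 4, 6.07, 6.61 and 6.47 at day 7, and 5.99, 6.20 and 6.42 at day 21. Day 4 stood apart, while days 7 and 21 overlapped at 0.32 and 0.18 log2 units over background. Cer1 fell 3.65-fold to day 7, a log2 change of -1.87 ± 0.18 (limma adjusted p = 6.91e-05). The later step of -0.18 ± 0.18, with a 95% interval from -0.59 to 0.23, did not pass. By day 7, 91.3% of the net log2 change of -2.05 ± 0.18 had been reached.

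The calls of Nodal, Foxh1 and Lefty2 between days 4 and 7 needed nearly all of the arrays. Without day 4 replicate 1 or 3, or any 1 of the 3 day 7 arrays, 2 members remained called, Tdgf1 and Cer1, and without day 4 replicate 2 there were 4. Over the 9 fits that left out 1 array, the limma adjusted p ran from 0.0186 to 0.0929 for Nodal, from 0.0116 to 0.142 for Foxh1 and from 0.00477 to 0.0920 for Lefty2. The log2 changes themselves ran from -0.56 to -0.39, from -0.64 to -0.47 and from -0.68 to -0.53.

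The timing of the falls was compared directly, by testing whether the log2 change from day 7 to day 21 differed from that between days 4 and 7. These intervals last 14 and 3 days. The difference passed for 3 of 9 members, against 14.7% of all genes, 8.33% with a higher and 6.32% with a lower later change. Tdgf1 (1.57 ± 0.18, limma adjusted p = 0.000172) and Cer1 (1.69 ± 0.32, limma adjusted p = 0.00449) changed more in the first interval. At day 7 Cer1 was 0.32 and Tdgf1 1.4 log2 units over background, so a second fall as large as the first could not have been measured in full, and their differences are ones of array signal. Foxh1 changed more in the second, with a difference of -1.61 ± 0.28 (limma adjusted p = 0.00252). For Nodal the difference was -0.40 ± 0.20 with a 95% interval from -0.86 to 0.05, and for Gdf3 it was -0.76 ± 0.27 (limma adjusted p = 0.0934). Neither passed, and the same held for Acvr2b, Smad2, Lefty1 and Lefty2. Per day, Tdgf1 changed by -1.3 log2 units in the first interval and by -0.17 in the second, and Foxh1 by -0.19 and -0.16.

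Unequal change between members was read from their difference within each array, in which any shift of a whole array cancels. For 7 pairs and 3 comparisons, 21 exact permutation tests were run, two-sided and of 3 against 3 arrays, in which the smallest possible p is 0.10, so none can pass, and the lowest value after Benjamini-Hochberg adjustment was 0.16. Lefty2 was below background on each day, and Nodal, Tdgf1, Gdf3 and Lefty1 were below it at day 21. Relative to background, Gdf3 stood at -0.09 and 0.03 log2 units at days 4 and 7, and Cer1 at 0.32 and 0.18 at days 7 and 21. Differences that involve these genes on those days are ones of array signal at or near the floor. The Tdgf1 signal relative to Nodal changed by -3.41 ± 0.09 (SE) between days 4 and 7 and by a further -1.44 ± 0.07 to day 21, without overlap of the groups. Cer1 relative to Nodal changed by -1.4 ± 0.27 by day 7 and then by 0.70 ± 0.16, again without overlap. In that later interval Nodal fell further and Cer1 did not pass. Lefty1 relative to Nodal changed by 0.10 ± 0.30 by day 7, with overlapping groups, and by 0.61 ± 0.27 over the whole course. The corresponding values for Lefty2 were -0.14 ± 0.11, also with overlap, and 0.56 ± 0.16. Relative to each other, Lefty1 and Lefty2 changed by 0.05 ± 0.18 between days 4 and 21 (exact permutation p = 0.9). Gdf3 relative to Nodal changed by 0.58 ± 0.19 by day 7, when Nodal fell and Gdf3 did not pass. Acvr2b relative to Smad2 changed by -0.14 ± 0.09 by day 7, with overlap, and by -0.74 ± 0.12 after it, without.

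**Figure D3:**
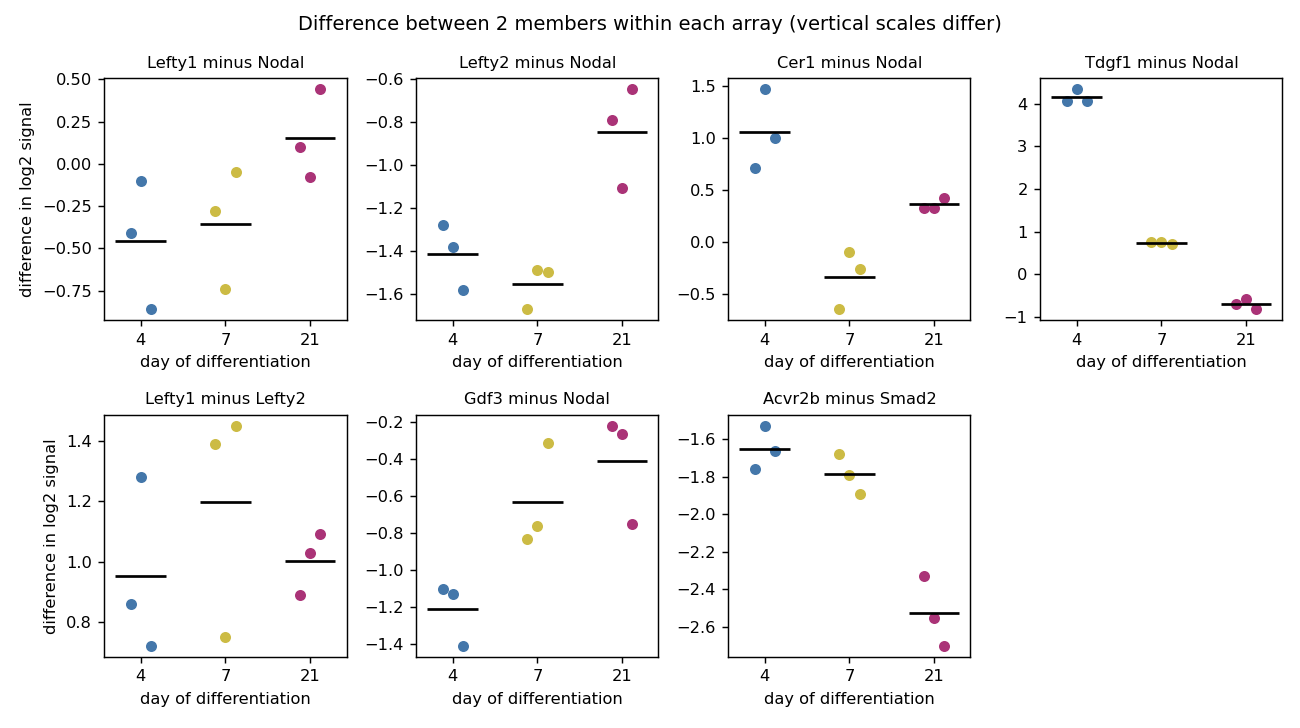
Difference in log2 signal between 2 members on the same array (vertical axis, a scale for each panel) by day of differentiation (horizontal axis). Points are arrays and lines their means. Since probes differ between genes, only changes between days carry meaning, such as the drop of Tdgf1 minus Nodal by 3.41 to day 7.

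Among other genes of Nodal and activin signalling, more rose than fell in each comparison. Of 29 listed, 27 were measured, with Gdf1 and Dand5 not analysed here. Between days 4 and 7, 5 of the 27 rose, 2 fell and 20 did not pass, with a median log2 change of -0.10. Of all genes, 6.98% rose and 6.47% fell. From day 7 to day 21, 10 rose, 2 fell and 15 did not pass, with a median of 0.23, where 12.4% of all genes rose and 10.7% fell. This split became 10 and 4 with arrays centred on their medians and with dim genes left out. It was also 10 and 4 with a variance trend and robust estimation. Between days 4 and 21, 8 rose and 3 fell, against 15.0% of all genes higher and 14.1% lower, with a median of 0.17. These counts became 6 and 3 after quantile normalization and 6 and 5 with arrays centred on their medians. The medians of all genes in the 3 comparisons were -0.01, -0.03 and -0.03.

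Among receptors, Cfc1 (17211739), the gene for Cryptic, the other co-receptor of the EGF-CFC family, took a course unlike that of Tdgf1. Its arrays read 7.86, 8.07 and 8.22 at day 4, 9.67, 9.32 and 9.57 at day 7, and 5.95, 6.32 and 5.54 at day 21. The day 7 arrays were above and the day 21 arrays below those of day 4, with no overlap. Cfc1 rose by 1.47 ± 0.19 while Tdgf1 fell (limma adjusted p = 0.000365), and then changed by -3.58 ± 0.19 to a mean below background (limma adjusted p = 3.68e-07). Tgfbr3, betaglycan, which presents TGF-beta and inhibin, rose by 1.18 ± 0.13 between days 4 and 7. The type I receptor Acvr1b and the type II receptor Acvr2a, a relative of Acvr2b, rose by 0.71 ± 0.19 and 0.68 ± 0.15 from day 7 to day 21, and were named after their values were seen because they act beside Acvr2b. Acvr1c, also named after its values were seen, was below background on each day.

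Among ligand and inhibitor genes, Inha, the inhibin alpha subunit that turns activin subunits into an antagonist, rose by 0.84 ± 0.13 to day 7 and by 1.43 ± 0.13 over the whole course. The activin subunit genes Inhba and Inhbb, named after their values were seen, had means below background on each day. Within that range Inhba rose by 1.03 ± 0.28 from day 7 to day 21 (limma adjusted p = 0.0204). Fst (17296344), follistatin, which traps activins, read 9.92, 9.90 and 9.81 at day 4, 6.90, 7.51 and 7.06 at day 7, and 7.49, 7.21 and 7.47 at day 21. The day 4 arrays stood apart and the later groups overlapped, as for Cer1. Fst fell 6.58-fold to day 7, a log2 change of -2.72 ± 0.15 (limma adjusted p = 1.37e-06), and its later change of 0.23 ± 0.15 did not pass. Enzymes of 3 convertase genes cleave the Nodal precursor or related precursors. To day 7, 1 of the 3 rose, Furin (0.98 ± 0.11), where 6.98% of all genes rose. After day 7, 2 of the 3 rose, Pcsk5 (0.99 ± 0.15) and Pcsk6 (0.55 ± 0.12), where 12.4% of all genes rose. Over the whole course 2 rose, where 15.0% of all genes rose, and Pcsk6 did not pass (0.30 ± 0.12, limma adjusted p = 0.0966). The convertase genes too were named after their values were seen.

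Of 14 intracellular genes, 1 rose and 1 fell to day 7, near the 6.98% and 6.47% of all genes that did so. From day 7 to day 21, 3 rose and 1 fell, where 12.4% of all genes rose and 10.7% fell. Smad3, the partner SMAD of Smad2, rose by 1.05 ± 0.12 in the later interval (limma adjusted p = 8.68e-05), in which Smad2 did not pass. Smad7, an inhibitory SMAD induced by the pathway, rose by 0.60 ± 0.14 and then changed by -0.57 ± 0.14. Tgif1, a repressor that binds SMADs, changed by -0.79 ± 0.13 and then by 0.51 ± 0.13. Nedd4l, a ubiquitin ligase that degrades activated SMAD2 and SMAD3, read 7.08, 7.17 and 7.21 at day 4, 6.98, 7.14 and 6.72 at day 7, and 9.78, 9.92 and 9.56 at day 21. It rose 7.01-fold from day 7 to day 21, a log2 change of 2.81 ± 0.13 (limma adjusted p = 2.02e-07). Nedd4l is also used by epithelial cells for other substrates.

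**Figure D4:**
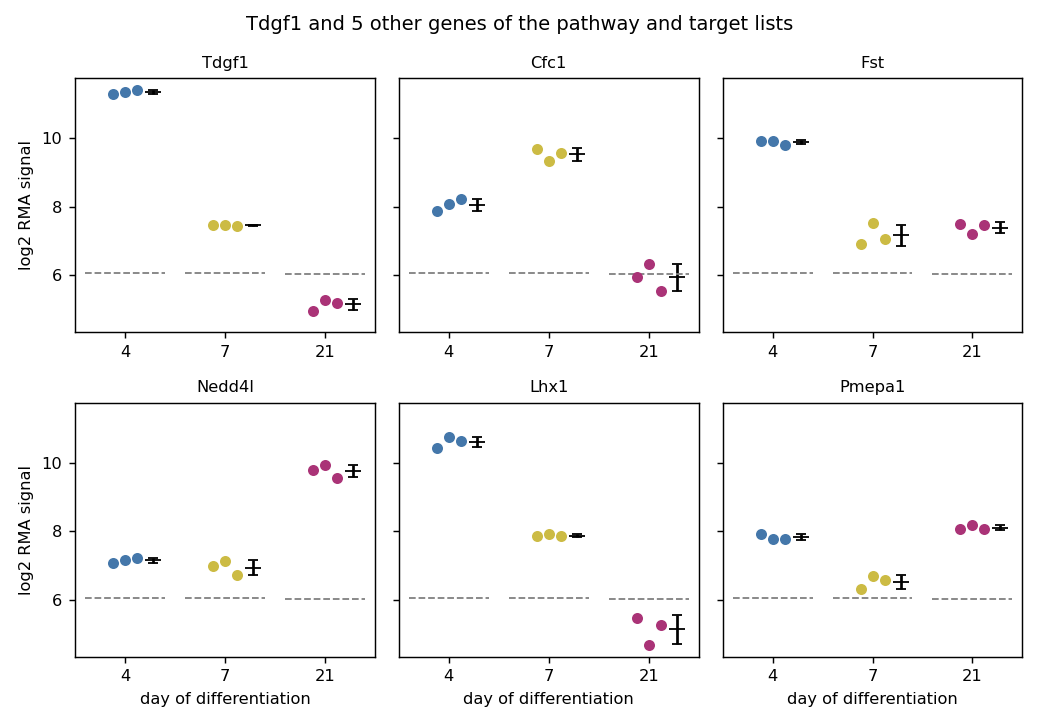
Log2 RMA signal (vertical axis, shared scale) of Tdgf1 and 5 other genes by day of differentiation (horizontal axis), with arrays as points, mean ± SD as black bars and the olfactory reference as dashed lines. Cfc1 was highest at day 7, at 9.52, when Tdgf1 had fallen to 7.46, and Nedd4l was highest at day 21, at 9.75.

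Of 12 genes known to respond to Nodal in the epiblast and early endoderm, 10 were measured and the others were not analysed here. Between days 4 and 7, 6 fell, 1 rose and 3 did not pass, with a median log2 change of -1.20, where 6.47% of all genes fell and their median was -0.01. From day 7 to day 21, 5 fell and 1 rose, with a median of -0.59, where 10.7% of all genes fell and their median was -0.03. Over the whole course 6 fell and 1 rose, with a median of -1.87, where 14.1% of all genes fell and their median was -0.03. Several of these genes stand in other programmes too, and earlier results of these data on Lhx1, Mixl1, Eomes and Sox17 were known. Lhx1, a LIM homeodomain factor of the streak and anterior visceral endoderm, read 10.43, 10.74 and 10.62 at day 4, 7.85, 7.93 and 7.85 at day 7, and 5.48, 4.68 and 5.26 at day 21. It fell 44-fold in array signal over the whole course, to a level below background. Eomes, a T-box factor of the streak, changed by -4.42 ± 0.13 over the same days, and Mixl1, a streak homeodomain factor, by -2.60 ± 0.18 by day 7. Eomes at day 21 was below background, and Mixl1 at day 7 was 0.05 log2 units over it. These too are falls of array signal to the floor.

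Sox17 and Pmepa1 were the target genes that rose in a comparison. Foxa2 and Hhex passed in no comparison, and were named after their values were seen. Sox17, an endoderm factor, rose by 1.47 ± 0.10 to day 7 and kept a net rise of 0.84 ± 0.10. Pmepa1, a feedback inhibitor induced by TGF-beta and activin signals through SMADs, read 7.93, 7.79 and 7.78 at day 4, 6.31, 6.70 and 6.58 at day 7, and 8.07, 8.19 and 8.07 at day 21. Its day 7 arrays lay below all others and its day 21 arrays above all others. Pmepa1 changed by -1.31 ± 0.12 and then by 1.58 ± 0.12 (limma adjusted p = 3.25e-05 and 4.85e-06), in the interval in which Nodal, Tdgf1 and Foxh1 fell further. Mean signal of the 8 mesenchyme markers was also higher at day 21 than at day 7, as given above. Their part in the Pmepa1 rise was not tested.

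**Figure D5:**
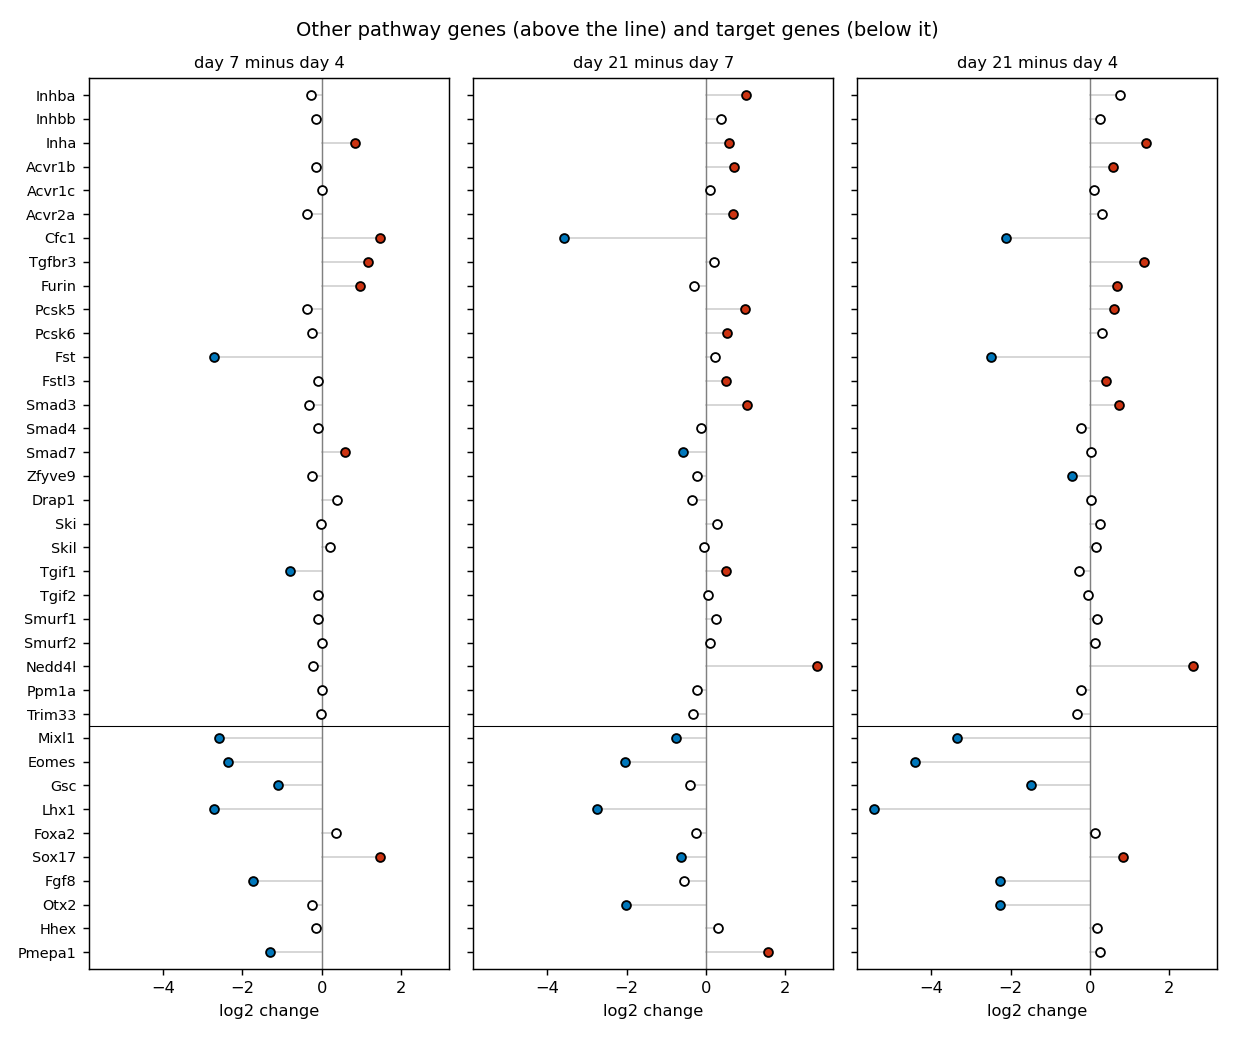
Log2 change (horizontal axis, 1 scale) of 27 other pathway genes and 10 target genes in the 3 comparisons of days. Red points rose, blue points fell and open points did not pass the adjusted test. Between days 7 and 21, 10 pathway genes rose and 2 fell.

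Nodal, Tdgf1, Gdf3, Lefty1 and Lefty2 are known to be active in undifferentiated cells. The 8 pluripotent and epiblast markers were counted beside them, and their part in the falls of these members was not tested. Between days 4 and 7, 3 of the 8 fell and 2 rose, and from day 7 to day 21 4 fell and 0 rose. Over the whole course 6 fell and 1 rose. The median log2 changes were -0.04, -0.97 and -0.74. Of all genes, 6.47%, 10.7% and 14.1% fell and 6.98%, 12.4% and 15.0% rose, with medians of -0.01, -0.03 and -0.03. Nanog, a pluripotency factor, changed by -1.04 ± 0.21 to day 7 and by -1.45 ± 0.21 after it. Pou5f1, which encodes OCT4, changed by -0.10 ± 0.17 and -0.51 ± 0.17, neither of which passed, and by -0.61 ± 0.17 over the whole course (limma adjusted p = 0.0230). The genes that rose to day 7 were Sox2, a factor also used by neural and endodermal cells, by 1.35 ± 0.20, and Dnmt3b, a DNA methyltransferase, by 0.70 ± 0.13, both named after their values were seen. Sox2 had a net rise of 1.79 ± 0.20, while Dnmt3b changed by -4.09 ± 0.13 after day 7. Afp rose in both intervals, by 4.88 ± 0.11 and 2.47 ± 0.11.

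Genes with a course most like that of 4 members were found by the distance between log2 profiles over the 9 arrays, each centred on its own mean, among 13188 genes above background on at least 1 day. Nearest to Tdgf1 were Lhx1 at a distance of 1.66, Aplnr, the apelin receptor, at 2.0, and Eomes at 2.42. For Nodal they were Rcc1, Taf1d and E2f7 at 0.26 to 0.34. Lefty2, itself below background on each day, lay at 0.32 from Sp8, Fgf3 and Gpr4, a likeness of array signal at the floor. For Cer1 they were Cabp1, Cacna2d2 and Tmem114 at 0.58 to 0.74. The profiles were not scaled to the size of the changes, so distances are not compared between members. These are descriptions of likeness over 9 arrays and carry no test.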

How the data were processed

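RNA of sorted cells was amplified from very small inputs and hybridised to Affymetrix arrays, per the labels' protocols. The authors deposited log2 values, 1 per probe set, which the submitters' processing notes credit to RMA in Affymetrix Expression Console, with the versions not given there. RMA equalises array distributions, so a general change in RNA content would hardly be seen. Precision is limited by the number of arrays.

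Of 34365 probe sets, 23521 carried 1 symbol, 1814 several and 9030 none here, and the brightest per gene was kept, which left 22180 genes. Days were compared with limma 3.58.1 (lmFit, eBayes) in R 4.3.3, with 1 mean per day, two-sided. Within-array differences were tested by exact permutation in scipy 1.17.1. The fit was tested on simulated data. Alternatives covered scaling, dim genes, probe sets, variance model, arrays used and a replicate block.

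The members and gene lists were chosen with earlier results of these data known. By rule, the genes named were the 9 members, Afp, Pou5f1, Nanog and the 3 nearest profiles of Tdgf1, Nodal, Lefty2 and Cer1. The rule also named the up to 2 largest called rises and falls per comparison of the pathway and target lists. Other measured genes were named after their values were seen.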

Additional observations from a re-analysis of the deposited data

How the results depend on the processing

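In 6 other analyses (quantile normalization, median centring, dim genes left out, mean of probe sets, a variance trend with robust estimation, and only the days compared), counts of called members, pathway genes and target genes stayed within 1.5 times those reported. Leaving out dim genes removed Lefty2. Median centring took a log2 shift of 0.10 from the change after day 7 and of 0.11 from the net change. Over fits that left out 1 array, the count of members called ran from 2 to 5 for day 7 against day 4 and from 6 to 8 for day 21 against day 4. It stayed at 5 for day 21 against day 7 and at 3 for the difference between intervals. Of 563 refits of single members, 529 kept direction and side of the threshold, 24 lost a call, 1 gained one (Gdf3, difference between intervals, without dim genes, -0.76, adjusted p = 0.0471) and 9 changed sign. All sign changes were of uncalled values. The later change of Smad2 became -0.053 with median centring and ran from -0.0019 (without day 7 replicate 1) to 0.081 without single arrays. The early change of Gdf3 ran from -0.057 (without day 7 replicate 3) to 0.21 without single arrays. The Lefty1 difference between intervals, 0.01, became -0.061 with quantile normalization and -0.081 with median centring, and ran from -0.39 to 0.33 without single arrays. The cause was not tested, and the fits without single arrays also had fewer arrays. Replicate numbers do not pair the arrays by any label. Deviations of same-numbered arrays from their day means correlated at -0.0541 to 0.263. Each day 7 array was closest to the day 21 array of its number, but this was not so for day 4. With a replicate block, 5, 5 and 8 members were called, as without it. The olfactory reference set how many members count as above background at day 21, with 6, 3 and 2 at its 90th, 95th and 99th percentiles.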

Other observations

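CER1 and LEFTY1 are products of the anterior visceral endoderm, and 9 other markers of that tissue were measured, some of which also stand among the target genes. Between days 4 and 7, 3 of the 9 fell and 1 rose, from day 7 to day 21 4 fell and 0 rose, and over the whole course 5 fell and 0 rose, with medians of -0.24, -0.39 and -0.70. Of all genes, 6.47%, 10.7% and 14.1% fell and 6.98%, 12.4% and 15.0% rose in these comparisons, with medians of -0.01, -0.03 and -0.03. The following genes are named after their values were seen. Dkk1, a secreted Wnt antagonist, changed by -0.49 ± 0.15 to day 7 (limma adjusted p = 0.0550) and by -1.92 ± 0.15 after it. Sfrp5, another Wnt antagonist, rose by 0.76 ± 0.16 from below background and then changed by -1.14 ± 0.16. Sfrp1 fell by 1.05 to day 7. Otx2, a homeodomain factor of forebrain and anterior endoderm, changed by -0.24 ± 0.15, which did not pass, and then by -2.02 ± 0.15. Foxa2, Hhex and Shisa2 passed in none of the 3 comparisons by limma. At day 21, 6 of the 9 markers were above background.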
